A study of Mus musculus with 10 samples.

Results

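Acetylcholine is made in a small set of brain neurons by choline acetyltransferase, packed into synaptic vesicles by the vesicular acetylcholine transporter, and split after release by acetylcholinesterase, so that the freed choline can return through the high affinity choline transporter. Its receptors are the muscarinic receptors, which act through G proteins, and the nicotinic receptors, which are ion channels assembled from several subunits. In the forebrain the neurons that make it lie in the basal forebrain and as interneurons of the striatum, while the receptors are carried by many other neurons. The genes described are Chat (choline acetyltransferase), Slc18a3 (the vesicular transporter), Slc5a7 (the choline transporter), Ache (acetylcholinesterase), the muscarinic receptors Chrm1, Chrm2, Chrm3 and Chrm4, and the nicotinic subunits Chrna4 and Chrnb2. They were chosen by name, and all 10 were found, on 14 probes of the 41174 probes of the array. Named genes in all numbered 18539. Chat, Chrm1, Chrm4 and Chrna4 had 2 probes each and the other 6 genes had 1.

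The data are 10 dual dye arrays, and each carried left hemibrain RNA of its own animal in Cy-5. The animals were male C57BL/6J mice, singly housed and put on a diet when 3 weeks old, and they were killed at 5 months after about 20 weeks of it. The sources disagree on what the groups are. The diet entries of the labels put all 10 mice on the n-3 PUFA enriched diet (FD), with pooled hemibrain RNA of mice on the standard lab diet (SD) in Cy-3, whereas the descriptions call the same arrays controls. The methods name both FD and SD mice, and put a purchased reference RNA in Cy-3. What each animal ate was therefore not settled, no comparison of diets was made, and values are given per array under the animal's number. Whole hemibrain RNA cannot tell fewer cells of a type from less RNA per cell.

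The labelled tissue could be checked in the Cy-5 channel. All 6 neuron markers, all 8 striatal markers and all 6 markers of cortex and hippocampus had a log2 Cy-5/Cy-3 above 1 on every array with a value, with list medians of 5.53, 4.05 and 4.24. Astrocyte and oligodendrocyte markers passed the same mark for 5 of 6 and 6 of 6 genes, microglia and endothelium for 3 of 6 and 3 of 5, and markers of the cranial motor nuclei for 2 of the 5 found. Of 5 skeletal muscle markers, 1 was above 1 and 2 were below -1 on all arrays. Neuron markers were thus far brighter in the hemibrain channel than in Cy-3, and every ratio given is a ratio to that Cy-3 RNA, whose identity was not settled. Slides held 4 arrays (C10-415, C10-416, C10-417 and C10-423, called the first slide), another 4 (C10-424, C10-425, C10-434 and C10-435, the second slide), or C10-413 and C10-437 alone. The software marks each spot that is well above its background in a dye, and a probe with that mark is said to clear the background of that dye. C10-434 stood apart: 49.8% of its probes cleared the Cy-5 background, and on the other 9 arrays 68.2% to 76.9% did.

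Chat and Slc18a3 form a single gene locus, in which Slc18a3 lies inside the span of Chat on the same strand, and the starts of the 2 genes in RefSeq are 1059 bases apart. The 250 bases before the start of each are printed with those of Slc5a7, since these are the 3 genes whose ratios are followed together across the arrays further on. Capitals mark the GC box, GGGCGG, on either strand. They also mark TATAAA, the letters of the TATA box, wherever these fall in the window. Sequences are from RefSeq, build GRCm38.p6, all on the minus strand and written 5′ to 3′ toward the gene. The Chat window lies at chr14:32465910-32466159, that of Slc18a3 at chr14:32464851-32465100 and that of Slc5a7 at chr17:54299035-54299284.
Chat: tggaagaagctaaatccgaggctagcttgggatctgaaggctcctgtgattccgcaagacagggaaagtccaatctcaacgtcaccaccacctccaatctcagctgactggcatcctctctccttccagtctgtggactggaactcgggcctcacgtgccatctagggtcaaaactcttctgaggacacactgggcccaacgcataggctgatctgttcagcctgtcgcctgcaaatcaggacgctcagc
Slc18a3: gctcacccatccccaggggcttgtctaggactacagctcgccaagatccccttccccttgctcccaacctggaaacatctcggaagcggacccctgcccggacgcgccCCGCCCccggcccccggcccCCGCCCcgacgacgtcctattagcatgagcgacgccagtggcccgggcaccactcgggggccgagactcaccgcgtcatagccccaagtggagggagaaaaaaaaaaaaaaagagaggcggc
Slc5a7: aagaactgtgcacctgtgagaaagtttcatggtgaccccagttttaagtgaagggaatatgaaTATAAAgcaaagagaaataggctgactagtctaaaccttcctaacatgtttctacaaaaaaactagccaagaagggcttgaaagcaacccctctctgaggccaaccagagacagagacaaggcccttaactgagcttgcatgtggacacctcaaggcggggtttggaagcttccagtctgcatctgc

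The Slc18a3 window was 66.0% G or C and held GGGCGG at 2 places, both on the opposite strand. The Chat window was 54.8% G or C and held neither motif. The Slc5a7 window was 45.6% G or C and held TATAAA once, starting 187 bases before the gene. Promoter windows were found for 9 of the 10 genes, all but Chrm1, and GGGCGG occurred in those of 5 genes (Slc18a3, Ache, Chrm2, Chrm4 and Chrna4). Among 32851 windows of the same length over the genome's genes, 32.7% held GGGCGG and 12.4% held TATAAA, with a median of 52.4% G or C.

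Of the 10 genes, 6 had a log2 Cy-5/Cy-3 above 1, a ratio of more than 2-fold, on all 10 arrays. These were Slc5a7, Ache, Chrm1, Chrm3, Chrna4 and Chrnb2, each represented by its brightest probe in Cy-5. The share among all 17665 genes with a value on every array was 16.2%. By probe the count was 8 of 14, against 12.4% of 40060 probes. Below -1 on all arrays were 0 of the 14 probes, against 14.3% of all probes. Of the 6 genes, 4 also cleared the Cy-5 background on all 10 arrays (Ache, Chrm1, Chrm3 and Chrnb2). Chat and Slc18a3 crossed 0, and Chrm2 and Chrm4 stayed above 0 on every array without reaching 1 on all.

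**Figure D1:**
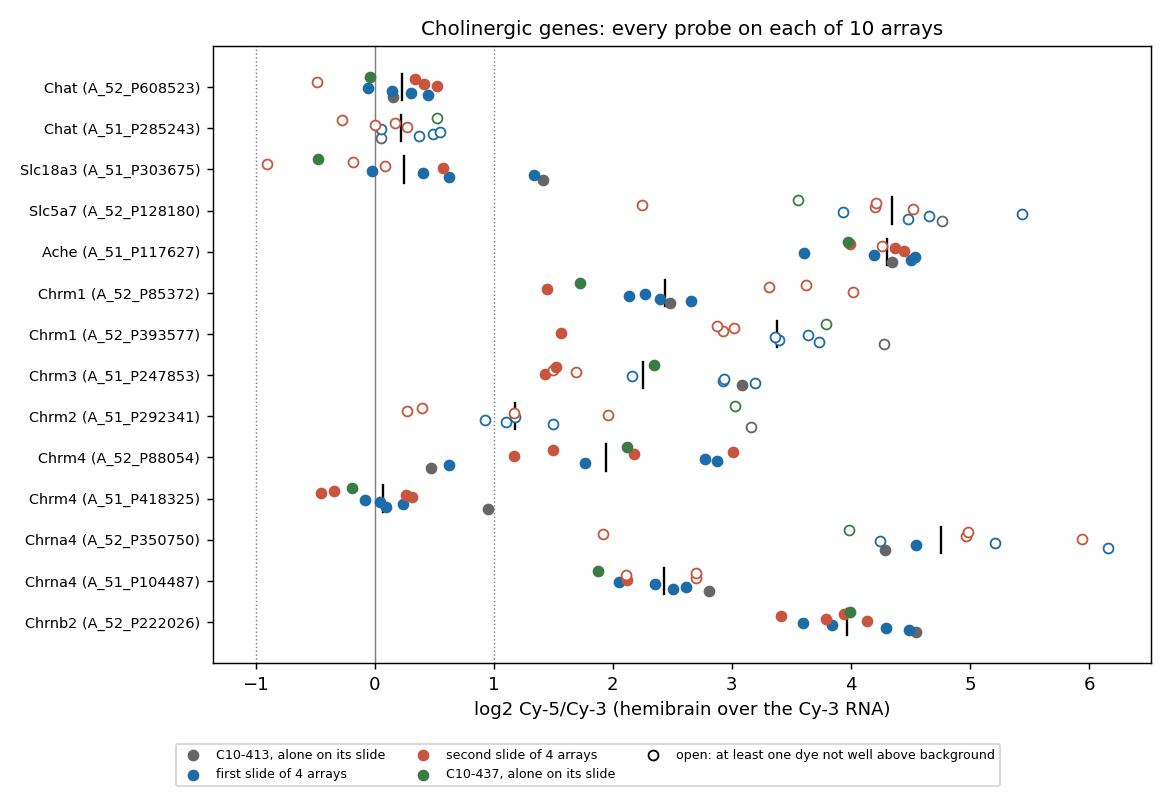
Each point is the log2 Cy-5/Cy-3 of a probe on 1 of 10 arrays, colored by slide, with the median as a black bar, and open where at least 1 dye did not clear the background. Chat and Slc18a3 sit around 0, while Slc5a7, Ache and Chrnb2 sit at medians of 4.34, 4.31 and 3.97.

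Chat, the enzyme that makes acetylcholine, was measured by the probe A_52_P608523, which cleared the background on 9 arrays in Cy-5 and on 10 in Cy-3. Its log2 Cy-5/Cy-3 was 0.15 on C10-413, then 0.45, 0.30, 0.15 and -0.06 on C10-415, C10-416, C10-417 and C10-423 of the first slide, 0.53, 0.41, -0.49 and 0.34 on C10-424, C10-425, C10-434 and C10-435 of the second slide, and -0.04 on C10-437. The ratio was above 0 on 7 arrays, with a median of 0.23, and the dim array C10-434 was the lowest. The other Chat probe, A_51_P285243, did not clear the background on any array in either dye, and its ratios of -0.28 to 0.55 bound nothing.

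Slc18a3, which loads acetylcholine into vesicles, had ratios (log2 Cy-5/Cy-3) spread more widely than those of Chat. They were 1.42 on C10-413, 0.62, 1.34, 0.41 and -0.02 on the first slide in the order above, 0.57, 0.09, -0.90 and -0.18 on the second slide, and -0.48 on C10-437. C10-413 and C10-416 were the highest and C10-434 again the lowest, a range of 2.32. The probe cleared the background on 7 arrays in Cy-5 and 8 in Cy-3.

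Slc5a7, which returns choline to the terminal, was high against the Cy-3 RNA on every array. Its log2 Cy-5/Cy-3 was 4.76 on C10-413, 4.48, 4.66, 5.44 and 3.93 on the first slide, 4.52, 4.20, 2.25 and 4.21 on the second slide, and 3.55 on C10-437. The probe cleared the Cy-5 background on 9 arrays, all but C10-434. It cleared the Cy-3 background on 0, so these ratios have a denominator at background and are not themselves bounds. Lower bounds, here and below, used processed signals after loess within each array and quantile normalization of the mean dye intensity between arrays. A bound was the Cy-5 signal over the dimmest signal that cleared the Cy-3 background on the same array. The probe's own Cy-3 signal was used instead where that was higher. By this, hemibrain RNA held at least 8.32-fold more by the median of the 9 arrays, and at least 4.42-fold to 14.3-fold on single arrays. No bound was recomputed with other processing. The median log2 Cy-5/Cy-3 of Slc5a7 was 4.34 with the processed signals, 1.29 with background subtraction and a floor, and 1.01 with normexp. The bounds therefore hold for the processed signals only.

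Ache, which splits acetylcholine in the cleft, was high against the Cy-3 RNA on every array, and cleared the background on 10 arrays in Cy-5 and 9 in Cy-3. Its log2 Cy-5/Cy-3 was 4.35 on C10-413, 4.51, 4.54, 4.20 and 3.60 on the first slide, 4.45, 4.37, 4.26 and 3.99 on the second, and 3.97 on C10-437. All 10 values lay within 0.93 of each other, and C10-434 did not stand apart. The Cy-5 level of Ache, given as log2 signal less the array's 75th percentile, ran from -0.17 on C10-434 to 1.78 on C10-413. Its Cy-3 level moved over a like span, from -4.41 to -2.52, with the same arrays lowest and highest.

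Of the muscarinic receptors, Chrm1 and Chrm4 have 2 probes each, and the probes did not give the same picture. Chrm1 encodes the receptor of cortical and hippocampal principal neurons. Its brighter probe, A_52_P85372, had a log2 Cy-5/Cy-3 of 2.48 on C10-413, 2.66, 2.39, 2.13 and 2.27 on the first slide, 4.02, 1.45, 3.31 and 3.62 on the second, and 1.73 on C10-437. The probe cleared the Cy-3 background on 7 arrays. It did not on C10-424, C10-434 and C10-435, the arrays with the 3 highest ratios, so those ratios have a denominator at background. The Cy-5 level of this probe was narrow, from -2.77 to -1.91, whereas its Cy-3 level ran from -6.16 to -3.37.

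The other Chrm1 probe, A_52_P393577, gave 4.27 on C10-413, 3.73, 3.40, 3.37 and 3.64 on the first slide, 1.57, 2.92, 3.02 and 2.88 on the second, and 3.79 on C10-437. This probe cleared the Cy-3 background on 1 array, C10-424, where its ratio was lowest. So on C10-424 the dyes of the 2 probes were measured differently, with Cy-3 at background for the first and not for the second. Both probes were above 1 on every array.

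Chrm4, a receptor of striatal projection neurons, cleared the background of both dyes on all 10 arrays with either probe. Its brighter probe, A_52_P88054, had a log2 Cy-5/Cy-3 of 0.47 on C10-413, 0.63, 1.77, 2.87 and 2.77 on the first slide, 1.17, 2.18, 3.01 and 1.50 on the second, and 2.12 on C10-437. The other probe, A_51_P418325, had 0.95 on C10-413, 0.09, 0.24, 0.04 and -0.08 on the first slide, 0.31, 0.26, -0.45 and -0.34 on the second, and -0.19 on C10-437. The medians of the 2 probes were 1.95 and 0.07, and their arrays did not run in the same order: C10-413 was the lowest by the first and the highest by the second. The Cy-5 level of the brighter probe spanned 3.45 on the log2 scale.

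Chrm3, which couples to calcium release, cleared the Cy-5 background on all arrays and the Cy-3 background on 4. Its log2 Cy-5/Cy-3 was 3.09 on C10-413, 3.19, 2.93, 2.94 and 2.16 on the first slide, 1.43, 1.69, 1.50 and 1.52 on the second, and 2.34 on C10-437. Values of the first and second slides did not overlap.

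Chrm2, the autoreceptor of cholinergic terminals, was dim. Its log2 Cy-5/Cy-3 was 3.16 on C10-413, 1.49, 1.11, 0.93 and 1.18 on the first slide, 1.96, 1.17, 0.28 and 0.40 on the second, and 3.03 on C10-437. The probe cleared the Cy-5 background on C10-413, C10-424 and C10-437 alone, the arrays with the 3 highest ratios, and the Cy-3 background on 0. On those 3 arrays hemibrain RNA held at least 6.67-fold more by the median, with single arrays at 1.60-fold to 7.82-fold.

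**Figure D2:**
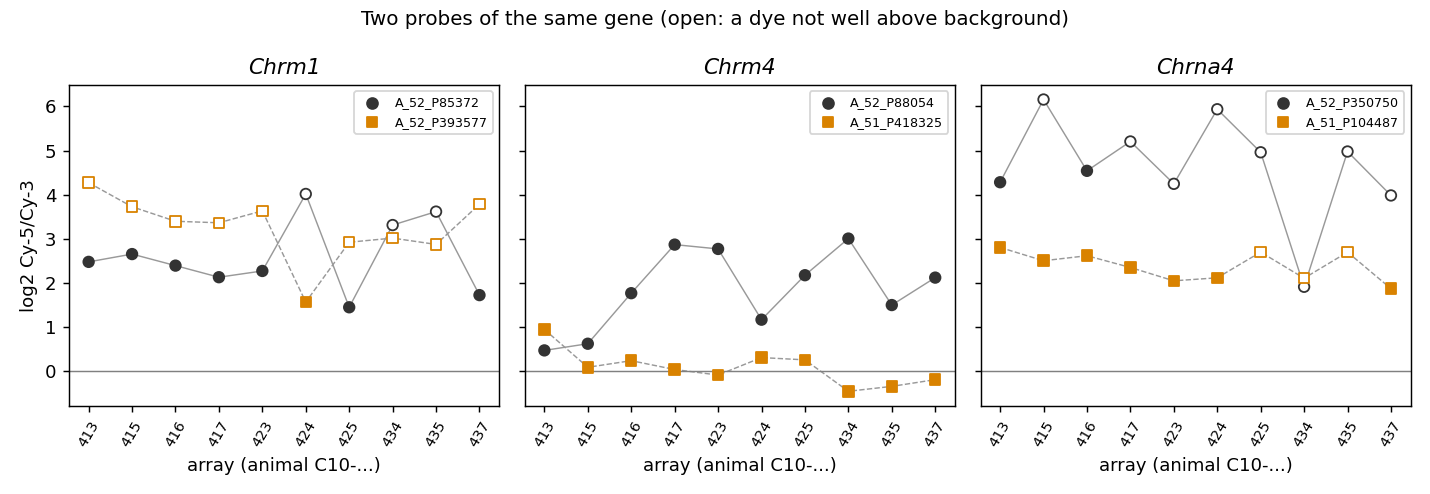
The log2 Cy-5/Cy-3 of both probes of Chrm1, Chrm4 and Chrna4 on the 10 arrays, named by animal number, with open symbols where a dye did not clear the background. The Chrm1 probes cross on C10-424, at 4.02 and 1.57, and the Chrm4 probes separate from 0.47 and 0.95 on C10-413 to 2.87 and 0.04 on C10-417.

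Chrna4 and Chrnb2 encode the subunits of the main high affinity nicotinic receptor of the brain. Chrnb2 had a range of 1.14 over the arrays and cleared the background of both dyes on every array. Its log2 Cy-5/Cy-3 was 4.55 on C10-413, 4.48, 4.29, 3.84 and 3.59 on the first slide, 4.13, 3.79, 3.41 and 3.94 on the second, and 3.99 on C10-437. Chrna4 by its brighter probe, A_52_P350750, had 4.28 on C10-413, 6.16, 4.54, 5.21 and 4.25 on the first slide, 5.94, 4.96, 1.92 and 4.98 on the second, and 3.98 on C10-437. This probe cleared the Cy-3 background on 2 arrays and the Cy-5 background on all but C10-434. The other Chrna4 probe, A_51_P104487, cleared the Cy-3 background on 7 arrays and gave lower and closer values, from 1.87 on C10-437 to 2.81 on C10-413, with a median of 2.43.

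By the median, the ratios of the 14 probes varied more from array to array than those of all probes. The median range over the 10 arrays was 2.04 for the 14 probes and 1.17 for all 40060 probes. Ranges of both Chat probes (1.01 and 0.83), Ache (0.93), Chrnb2 (1.14) and Chrna4 by A_51_P104487 (0.93) lay below 1.17. All the others of the 14 lay above it. Among probes that cleared the Cy-5 background on all arrays the medians were 1.58 over 6 probes and 0.87 over 19259 probes. By Cy-5 level alone the median range was 1.77 for the 14 probes and 1.41 for all probes. Of the 14, 3 cleared the background of both dyes on all arrays (both Chrm4 probes and Chrnb2).

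The rest of the cholinergic system was described from lists of other genes, of which 35 of 36 were found. Of 9 other neuronal nicotinic subunits, 2 were above 1 and 0 below -1 on all arrays, with a list median of 1.32, where 16.2% of all genes were above 1 and 15.6% below -1 on all arrays, shares against which the counts of the other lists are also to be read. A count of 2 of 9 is near that share. Of the 9, 0 cleared the Cy-5 background on all 10 arrays. The 2 were Chrna7, the homomeric receptor subunit, at 2.89 to 5.63 with a median of 4.48, and Chrna5, an accessory subunit, at 1.23 to 4.28 with a median of 3.16. Neither cleared the Cy-3 background on any array, and the bound for Chrna7 was at least 6.72-fold by the median of 9 arrays. These values are of the brightest probe. The other Chrna7 probe, A_52_P648773, had mean ratios of 0.31 on the first slide and -0.19 on the second, so the 2 probes differed. Chrna9 and Chrnb4 did not clear the Cy-5 background on any array. Chrm5, the fifth muscarinic receptor, had a log2 Cy-5/Cy-3 of -0.47 to 0.55.

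Muscle nicotinic subunits ran the other way against the Cy-3 RNA. Of 5 subunits, 3 were below -1 on all arrays and 0 above 1, with a list median of -1.91. Chrna1 lay at -3.37 to -2.43, Chrnb1 at -2.28 to -1.32 and Chrnd at -3.38 to -2.12. By its brighter probe Chrne, the adult epsilon subunit, lay just above 0 on every array, from 0.08 to 0.62. Its other probe, A_52_P522601, had mean ratios of 0.08 on the first slide and -0.43 on the second. Rapsn, which clusters the receptor at the neuromuscular junction, was also low, at -4.64 to -3.36. In Cy-5, Chrna1 and Chrnb1 cleared the background on 9 arrays each, Rapsn on 8 and Chrnd on 4. The ratios of Chrnd thus mostly have a numerator at background. The probes of Chrna1, Chrnb1, Chrnd and Rapsn were thus brighter in Cy-3 than in the hemibrain channel, which says nothing of their level in muscle.

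**Figure D3:**
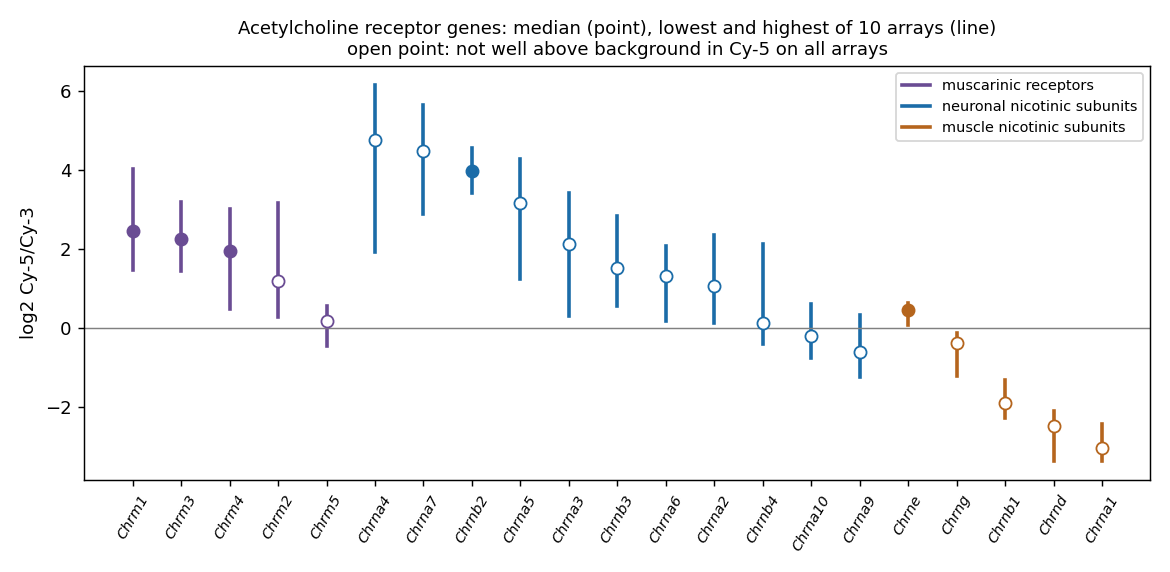
For each acetylcholine receptor gene, the point is the median log2 Cy-5/Cy-3 and the line runs from the lowest to the highest of the 10 arrays, with open points for genes that did not clear the Cy-5 background on all arrays. Neuronal subunits reach a median of 4.75 (Chrna4), and the muscle subunits Chrna1, Chrnb1 and Chrnd lie wholly below -1.

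Genes that help nicotinic receptors assemble or tune them were the highest of these lists. Of 7, 5 were above 1 on every array with a value (Ric3, Tmem35a, Lynx1, Ly6h and Lypd1) and 1 below -1 (Rapsn), and the list median was 5.00. Tmem35a, the chaperone also called NACHO, lay at 6.61 to 8.58, and Lynx1, a membrane-bound modulator, at 2.84 to 3.66. Of 6 genes of cholinergic neuron identity, 4 were above 1 on all arrays. Slc10a4, a vesicular protein of cholinergic and monoaminergic neurons, lay at 5.66 to 8.42 and did not clear the Cy-3 background on any array, which gave a bound of at least 70.2-fold by the median of 10 arrays. Lhx8, a transcription factor of forebrain cholinergic neurons, lay at 3.67 to 6.28, Isl1, another such factor, at 2.58 to 3.57, and Ngfr, the low affinity nerve growth factor receptor, at 1.62 to 2.89. By its other probe, A_51_P384968, Ngfr had mean ratios of -0.002 on the first slide and -0.03 on the second. Gbx1 lay at -0.33 to 0.57. Of 5 genes for the entry and phosphorylation of choline, 1 was above 1 on all arrays, the transporter Slc44a1 at 2.24 to 2.69, and the list median was -0.39. Bche, the second esterase, did not clear the Cy-5 background on any array, and Prima1, the membrane anchor of Ache in brain, lay at 0.78 to 3.66.

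Whether the genes differed between the first and the second slide was tested with limma over 40299 probes. The slides are a technical batch, and slide and diet cannot be told apart where the diets are not settled. At an adjusted p under 0.05, 0 of the 14 probes passed, against 0.0744% of all probes (30). At an unadjusted p under 0.05 there were 2 of 14, Chrm3 and the dimmer Chrm1 probe, against 10% of all probes. The same 2 were the probes whose 4 and 4 ratios did not overlap, which 5.65% of all probes did.

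Chrm3 was lower in ratio on the second slide by 1.27 on the log2 scale (SE = 0.23), with an adjusted p of 0.0852 by limma. Without C10-423, the first-slide array with the lowest ratio, the difference was -1.48 and passed, with an adjusted p of 0.0440 by limma. With any other array of the slides left out it did not pass, with adjusted p of 0.1265 to 0.2192 by limma. Among probes that cleared the Cy-5 background on the 8 arrays it passed, at 0.0354, where 0.349% of 19482 probes did. The separate dyes ran otherwise. The Cy-5 level of Chrm3 was -3.75, -3.26, -3.72 and -4.09 on the first slide and -2.73, -3.08, -2.56 and -3.16 on the second, so the hemibrain channel was higher, not lower, on the second slide, by 0.82 (adjusted p = 0.0780 by limma). By Cy-5 level 0 of the 14 probes passed, against 6.71% of all probes (2704), and 2570 of those 2704 were higher on the second slide. The Cy-3 level of Chrm3 rose by more, from -6.91, -6.16, -6.63 and -6.23 to -4.12, -4.74, -4.03 and -4.65. The difference was 2.10, with an adjusted p of 0.00117 by limma. On the first slide the Cy-3 signal of Chrm3 did not clear the background on any array.

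**Figure D4:**
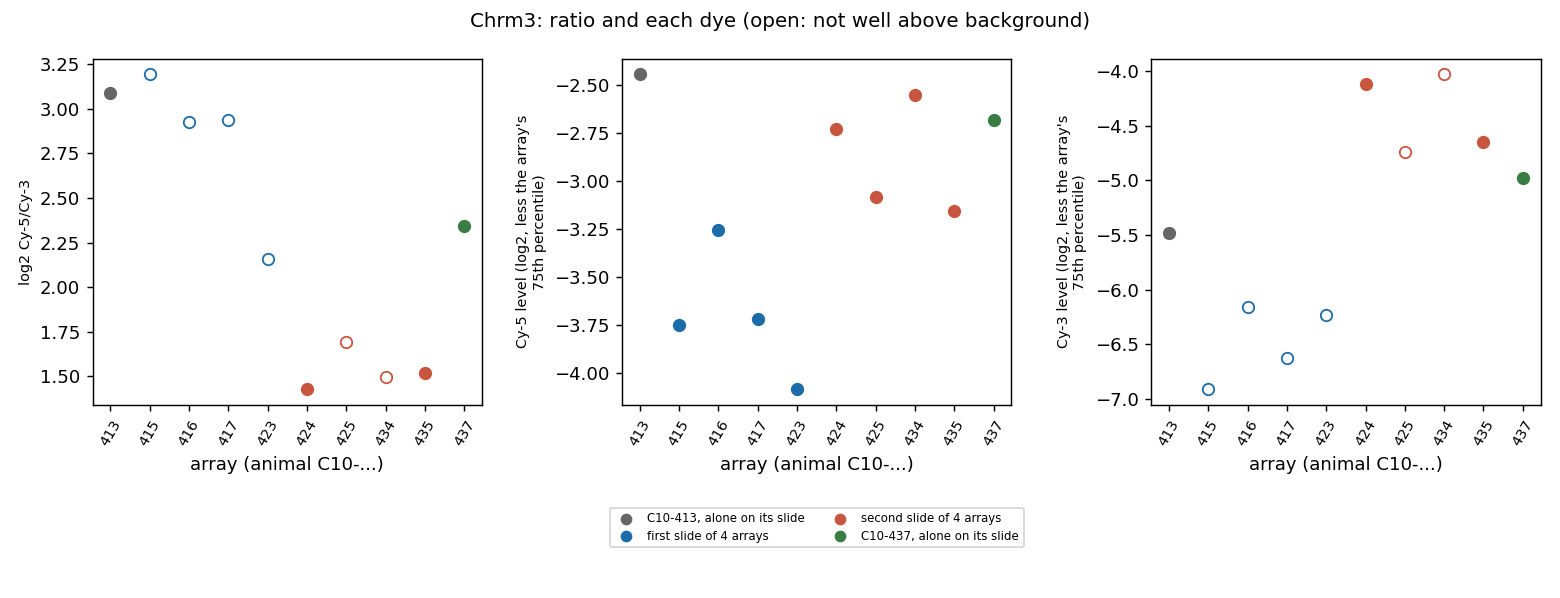
Chrm3 on the 10 arrays: log2 Cy-5/Cy-3, and the level of each dye as log2 signal less the array's 75th percentile, colored by slide and open where the dye (for the ratio, either dye) did not clear the background. On the second slide both dyes are higher than on the first, Cy-3 by 2.10 and Cy-5 by 0.82, and the ratio is lower by 1.27.

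Chrm3 was not alone in the Cy-3 channel. By Cy-3 level, 3 of the 14 probes passed, those of Chat (A_52_P608523), Chrm3 and Chrnb2, against 13% of all probes. All 3 were higher on the second slide, as were 4735 of the 5241 probes that passed over the whole array. The differences were 0.94 for Chat and 0.36 for Chrnb2, with adjusted p-values of 0.000868 and 0.0235 by limma. Cy-3 levels of the 4 and 4 arrays did not overlap for 6 of 14 probes, against 27.7% of all probes. For Chat the Cy-5 level was higher by a like amount, 0.92 with an adjusted p of 0.0562 by limma, so its ratio differed by -0.01.

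None of the other probes passed for the ratio. The dimmer Chrm1 probe was lower by 0.94 on the second slide (SE = 0.32, adjusted p = 0.337 by limma). Slc18a3 differed by -0.69 (SE = 0.36) and Slc5a7 by -0.83 (SE = 0.51), with adjusted p-values of 0.607 and 0.696 by limma, and both held their lowest value on C10-434. Ache differed by 0.06 (SE = 0.23). In a simulation at this size, 59.5% of probes changed by 1.5 were recovered, so a difference of that size could be missed.

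Chat, Slc18a3 and Slc5a7 are used together by cholinergic terminals, and their ratios were set against each other over the 10 arrays in 3 pairs. Pearson's r was 0.59 for Chat and Slc18a3 (p = 0.0733, adjusted p = 0.0733), 0.73 for Chat and Slc5a7 (p = 0.0252, adjusted p = 0.0378) and 0.76 for Slc18a3 and Slc5a7 (p = 0.0079, adjusted p = 0.0238), by a two-sided permutation test adjusted over the 3 pairs. Spearman's rho was 0.53 (permutation p = 0.123, adjusted p = 0.185), 0.42 (permutation p = 0.232, adjusted p = 0.232) and 0.83 (permutation p = 0.0051, adjusted p = 0.0154). C10-434, the dim array, was the lowest array for all 3 genes, and none of the 3 cleared the Cy-5 background on it. Slc5a7 did not clear the Cy-3 background on any array, so both coefficients with it were taken over values at background in that dye, and their p-values describe those values and not measured levels of the gene in Cy-3.

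Leaving out the 2 arrays farthest from the median of the first gene, C10-434 among them each time, r fell to 0.29, 0.29 and 0.62. For Chat with either partner the relation did not hold and rested on C10-434, since r was 0.29 for both pairs with C10-434 alone left out. For Slc18a3 and Slc5a7, r without C10-434 alone was 0.63 (exact permutation p = 0.0647, adjusted p = 0.194). Each slide held at most 4 arrays, too few for a value within it, and over the 8 arrays with each slide's mean removed r was 0.82, 0.83 and 0.68. These 8 arrays include C10-434, and no such value was taken without it, so they do not show a relation apart from that array. By the Cy-5 level alone the 3 pairs did not run together, with r of 0.14, -0.08 and -0.24. The labels and the methods each name 1 kind of Cy-3 RNA for all arrays, but whether the same RNA was on each was not tested. All ratios of an array share its dye scaling.

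**Figure D5:**
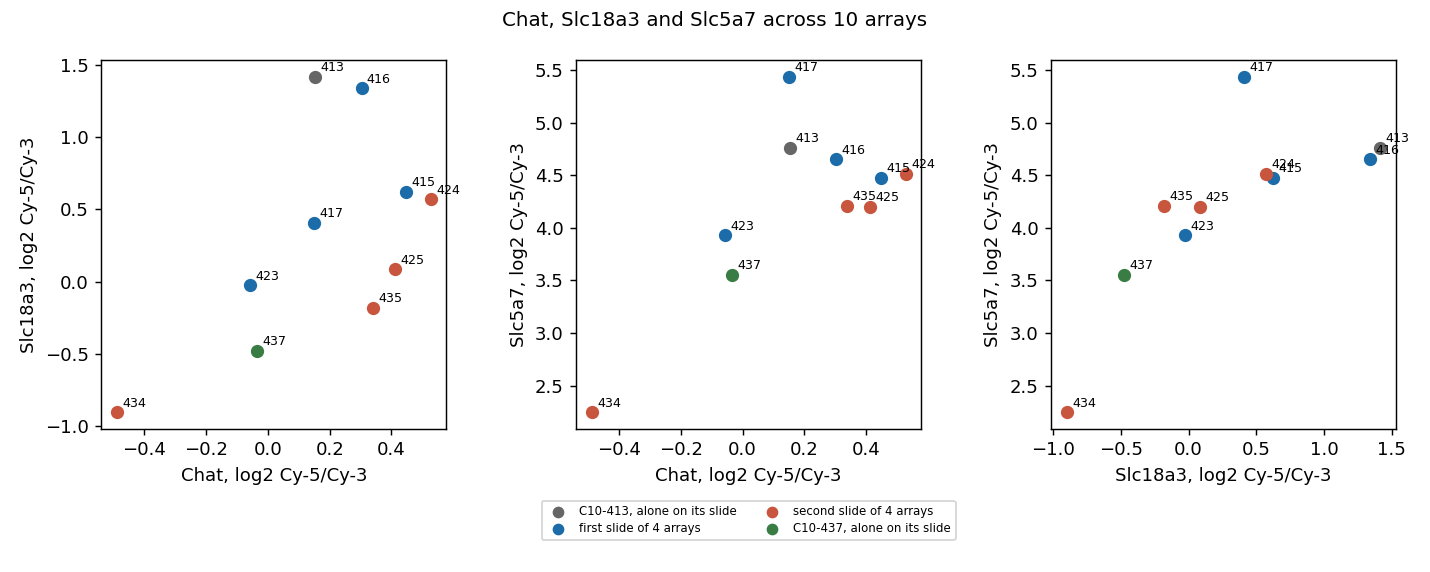
Each panel sets the log2 Cy-5/Cy-3 of a pair among Chat, Slc18a3 and Slc5a7 against each other, with 1 point per array named by animal number and colored by slide. C10-434 lies at the lower left of every panel, and r is 0.59, 0.73 and 0.76 over 10 arrays and 0.29, 0.29 and 0.63 without it.

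The mean of the 3 genes, each less its own median, was highest on C10-413 (0.50) and C10-416 (0.49) and lowest on C10-434 (-1.32) and C10-437 (-0.59). Of 11304 genes that cleared the Cy-5 background on all arrays, the 5 most like it over the 10 arrays were Cpt1a, Mal, Zfp641, Nubp2 and Mrgpre, with Pearson's r of 0.92, 0.91, 0.90, 0.90 and 0.90. Without C10-434 the 5 were other genes, Zfp108, Snx17, Bckdha, Ubxn8 and Txnrd2, at 0.93 to 0.94. Of the 6 genes of cholinergic neuron identity, 5 cleared the Cy-5 background on all arrays. For Gbx1 and Ngfr, r with the mean was 0.63 and 0.55 over 10 arrays, and 0.60 and 0.58 without C10-434. For Lhx8, Isl1 and Slc10a4 it was 0.42, 0.40 and 0.48, and -0.05, 0.03 and 0.25 without it. Ranked from the most alike of the 11304 genes, Gbx1 was 899, Ngfr 1436, Lhx8 2372, Isl1 2490 and Slc10a4 1920. Without C10-434 the ranks were 1662, 1811, 6165, 5643 and 4232 in that order. Many other genes were thus more like the mean than any of the 5. These likenesses are a description over 10 arrays whose Cy-3 RNA was not settled.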

How the data were processed

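RNA of 10 mouse hemibrains (Cy-5) was measured against another RNA (Cy-3) on Agilent 4x44k arrays. The authors scanned the slides, and the deposited output of Feature Extraction 10.10.1.1 holds intensities on a linear scale, with background corrected and dyes normalized by the software in the processed signals, and a log10 ratio per spot. The authors also deposited a table of log2 ratios, with column medians of -0.05 to 0.10, which followed that log10 ratio with r of at least 0.997 on every array.

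From the processed signals, log2 Cy-5/Cy-3 was taken without further centring. Control and outlier-flagged spots were left out, spots of a probe were averaged, and a probe cleared the background of a dye where at least 0.5 of its spots were marked as well above it. Cy-5 and Cy-3 levels are log2 processed signals less the array's 75th percentile. Bounds used processed signals after loess within each array and quantile normalization of the mean dye intensity between arrays. Probes were named by accession through RefSeq (GRCm38.p6), and 27198 of 41174 (66.1%) matched. No saturated spots occurred. The number of arrays limits the precision. Genes were represented by the probe of highest mean Cy-5 level. No array was assigned to a diet.

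Slides were compared with limma 3.58.1 (R 4.3.3), adjusted by Benjamini-Hochberg over all probes and tested on simulated data. Correlations used permutation tests (100000 resamples, or all orders where an array was left out) in Python 3.11.15 with scipy 1.17.1. The members, the lists and the tests were chosen with earlier results of these data known. Every member is named. Of the other lists, the rule names up to 4 genes with the highest or lowest median ratio among those that cleared the Cy-5 background on all arrays, and the 5 genes most like the mean of Chat, Slc18a3 and Slc5a7. Chrm5, Chrna5, Chrna7, Chrna9, Chrnb4, Chrna1, Chrnb1, Chrnd, Rapsn, Ric3, Isl1, Bche and Prima1 fall outside it and were chosen with their values known. Alternatives were loess within each array (span 0.3), median centring, the deposited table, background subtraction with a floor of 0.5 and an offset of 50, normexp, all probes of a gene, only probes that cleared the background, each dye alone, and leaving out arrays. The Cy-3 level alone was added after seeing the data. The normexp setting used median signals.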

Additional observations from a re-analysis of the deposited data

Results flagged for a closer look

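In 3 of the 28 measures tested (ratio and Cy-5 level of 14 probes), 1 array stood apart from the other 9 by Dixon's test at the 95% level. Chance gives about 1 in 20, or 1.4. The ratio of the dimmer Chrm1 probe (A_52_P393577) was 1.57 on C10-424 against 2.88 to 4.27 elsewhere, and C10-424 was the only array where its Cy-3 signal was well above background. The ratio of Chrna4 (A_52_P350750) was 1.92 on C10-434 against 3.98 to 6.16 elsewhere. The Cy-5 level of the Chat probe A_51_P285243, not well above background on any array, was -5.65 on C10-434 against -8.30 to -7.17 elsewhere. C10-434 was the array with the fewest probes well above background in Cy-5, and its part in either value was not tested.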

How the results depend on the processing

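Of the 10 genes, 6 were above 1 on all arrays with the processed ratio, 3 with background subtraction and a floor (Ache, Chrm1 and Chrnb2) and 0 with normexp. The medians of the genes did not change sign in any of 88 recomputations, and 14 moved by over 1 SD (6 with the floor, 7 with normexp and 1 with all probes of a gene). Between the slides, 30 probes of all were called, against 1 with the floor, 68 among probes well above background in Cy-5, 2704 by Cy-5 alone, 5241 by Cy-3 alone and 0 to 18 with an array left out. Of the 14 probes 0 were called, 1 among probes well above background (Chrm3), 3 by Cy-3 alone, and 0 to 1 with an array left out, Chrm3 without C10-423. The Chrm3 difference of -1.27 turned to 0.10 with the floor (adjusted p = 0.917 by limma), 0.82 by Cy-5 alone and 2.10 by Cy-3 alone. The correlation of Chat with Slc5a7 was 0.53 with loess, 0.14 with the floor, 0.29 without C10-434, 0.71 without C10-437 and -0.083 by Cy-5 alone. That of Slc18a3 with Slc5a7 was 0.11, 0.63, 0.74 and -0.24 with the floor, without C10-434, without C10-437 and by Cy-5 alone. The cause of these changes was not tested. No paired analysis was possible because the labels give the arrays no groups and no replicate numbers. Signals near background, above all in Cy-3 for Slc5a7 and Chrm2, leave those ratios uncertain, and lower bounds are given for both genes.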
